A study of Nicotiana tabacum with 32 samples.

Results

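In SIPK-silenced tobacco cells, 205 of the 32448 spots on the array read below wild type after 8 h of megaspermin although they had read above wild type before any treatment. A spot was counted when it carried no gene symbol or a symbol starting with LOC and had at least 2 values in both groups. Its mean log2 ratio of silenced over wild type also had to be -0.4 or less on the megaspermin 8 h arrays and 0.4 or more on the untreated biotic control arrays. Of the 32448 spots, 16678 had enough values for that rule, and 16365 of these had no gene name in this sense. The array carried its clones in duplicate, and the 205 spots belong to 149 clones, of which 56 were counted with both spots and 93 with 1 spot. No symbol was given for 129 of the 149 clones, 18 carried 1 locus number from 13 loci, and 2 carried several symbols. The files give the locus numbers no description, so no function is stated for them, and a clone without a symbol is called here by the identifier of its first spot.

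The cells were suspension cultures of tobacco (Nicotiana tabacum) of the genotype Xanthi SIPK-Ri, in which RNA interference silences SIPK, and of the wild type Xanthi. All cultures had spent 3 days in fresh medium at 25 C in the dark, and those of each genotype were mixed before being split into 3 portions of 10 ml. On 24 arrays, in 8 groups of 3, silenced and wild-type cells given the same treatment were hybridised together. The elicitor set held the biotic control at 0 h, harpin (P. syringae) at 4 h and 8 h, and megaspermin (P. megasperma) at 4 h and 8 h, with no pretreatment. The oxidant set was incubated with xanthine for 30 min first and held the abiotic control at 0 h and xanthine oxidase at 4 h and 8 h. Another 6 arrays set wild-type cells after 4 h of harpin or of megaspermin against untreated wild-type cells at 0 h, and 2 single arrays repeated a comparison with exchanged dyes.

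SIPK, the salicylic acid-induced protein kinase, is a mitogen-activated protein kinase of tobacco that is switched on by elicitors, wounding and oxidants and passes these signals on to defence genes. Harpin is a protein that Pseudomonas syringae secretes, and megaspermin is a small protein of the elicitin family from Phytophthora megasperma. Both set off defence responses and cell death in tobacco. Xanthine oxidase makes superoxide from xanthine, so the oxidant set exposes cells to reactive oxygen without a protein from a pathogen.

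Several features of the design limit these values. Because each genotype was mixed before it was divided, replicate arrays hold portions of 1 culture, and the p-values rest on the spread between such portions. Every control was taken at 0 h, so treatment and time in culture cannot be told apart. Whether the silenced line is 1 clone is not stated in the labels. Symbols were given for 1810 of the 32448 spots, and none of these is named SIPK. A spot for it without that name may exist, so how far it was silenced cannot be read here. The labels call the silenced or treated cells the query, in Cy3, and the wild-type or untreated cells the reference, in Cy5. A positive ratio was therefore read as likely higher in silenced or treated cells. Against that reading, titles name wild type before the silenced line, and the channel on top of the ratio is not stated. If the ratio ran the other way, every "higher" below would read "lower". The megaspermin of the wild-type arrays is labelled P. syringae, and that it was the elicitor of the other arrays was taken from its name.

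Across the 32 arrays, 8258 to 21105 spots had a value and 105 to 205 of the 205 member spots did. Array medians lay between -0.07 and 0.07, and arrays of 1 group correlated at 0.648 to 0.908. Gene symbols come from the annotation of the array platform, which can be old, and a clone can bind transcripts of related genes. Over the 26 arrays that the rule did not use, duplicate spots of the member clones had a median correlation of 0.852. It ranged from 0.0758 to 0.9945 among the 133 clones that had at least 10 such arrays.

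The members were chosen by the biotic control and megaspermin 8 h arrays, so their values there are a description only. The median of the 149 clone means was -0.52 at 8 h of megaspermin, with quartiles at -0.72 and -0.41, against 0.60 in the biotic control, with quartiles at 0.44 and 0.81. Over all clones the medians were -0.08 at 8 h of megaspermin and -0.03 in the biotic control. The 3 megaspermin 8 h arrays did not contribute equally: the median member read -0.46, -0.79 and -0.48 on them, against 0.70, 0.60 and 0.64 on the 3 biotic control arrays. Without the second megaspermin array, 177 spots would have met the rule, of which 161 are among the 205. Averaged over both spots, 98 of the 149 clones met both thresholds. Of the 93 clones counted with 1 spot, 75 had enough values at the other spot, and 64 of these other spots had the same pair of signs.

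**Figure D1:**
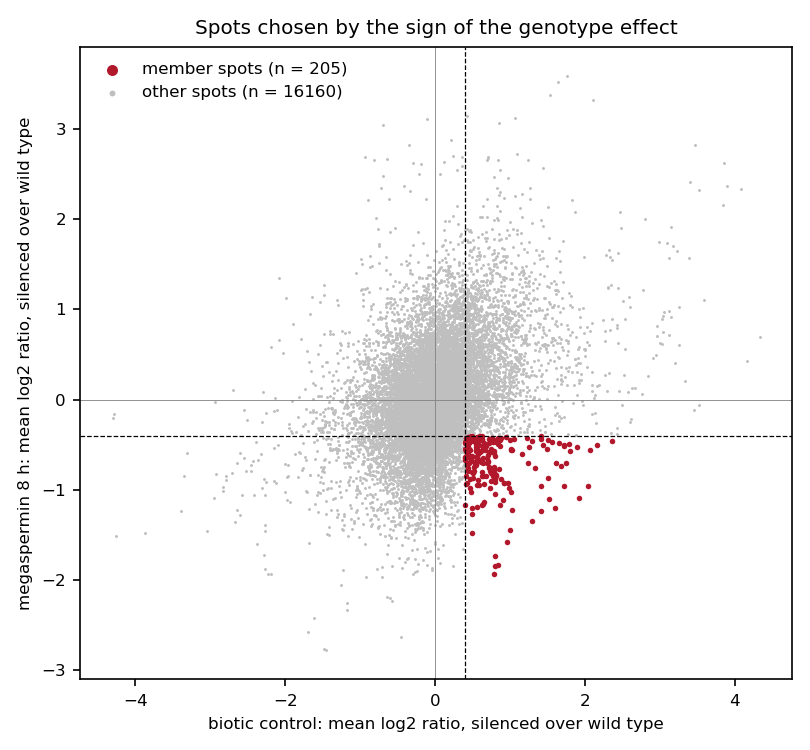
Mean log2 ratio of silenced over wild-type cells for each of 16365 spots without a gene name, with the biotic control (0 h) on the x axis and 8 h of megaspermin on the y axis; dashed lines mark 0.4 and -0.4. The 205 member spots (red) fill the lower right corner, where the ratio is at least 0.4 in the control and -0.4 or less with megaspermin.

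The thresholds cut through a continuous cloud of spots. Just inside, spot 139873 had a mean of -1.16 at 8 h of megaspermin against 0.40 in the biotic control, spot 141535 had -0.47 against 0.40, and a spot of LOC102590714 had -0.40 against 1.42. Just outside, spot 136931 had -0.62 against 0.40, spot 138367 had -0.44 against 0.40, and spot 134334 had -0.40 against 1.11, each missing 1 threshold narrowly. The opposite turn, with ratios of 0.4 or more at 8 h of megaspermin and -0.4 or less in the biotic control, was shown by 326 spots of 226 clones. A further 1281 spots of 820 clones read 0.4 or more in both groups.

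The oxidant set held the clearest pattern of the members outside the arrays that chose them. In xanthine-treated control cells, 70 of the 149 member clones were higher in silenced cells and 2 were lower, where 11.4% of all 10868 clones tested were called higher and 11.3% lower (limma, Benjamini-Hochberg adjusted p under 0.05 over all clones tested). At 4 h of xanthine oxidase 68 of 141 were higher and 1 lower, where 16.7% and 18.1% of all clones were called. At 8 h 78 of 140 were higher and 2 lower, where 17.7% and 20.9% of all clones were called, or 38.7% in both directions. The members' median log2 ratio was 0.39 in the abiotic control, 0.38 at 4 h and 0.49 at 8 h of xanthine oxidase, with all clones at -0.02, -0.01 and -0.03. Of 138 members tested in all 3 groups, 51 were higher in all 3 and 0 were lower in all 3, while 846 of all 7886 clones (10.7%) were higher in all 3. The clones that read 0.4 or more in both groups of the rule had 446 of 817 higher in the abiotic control (54.6%), so the excess of higher calls was not confined to the members. Those with the opposite turn had 94 of 226 lower there.

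**Figure D2:**
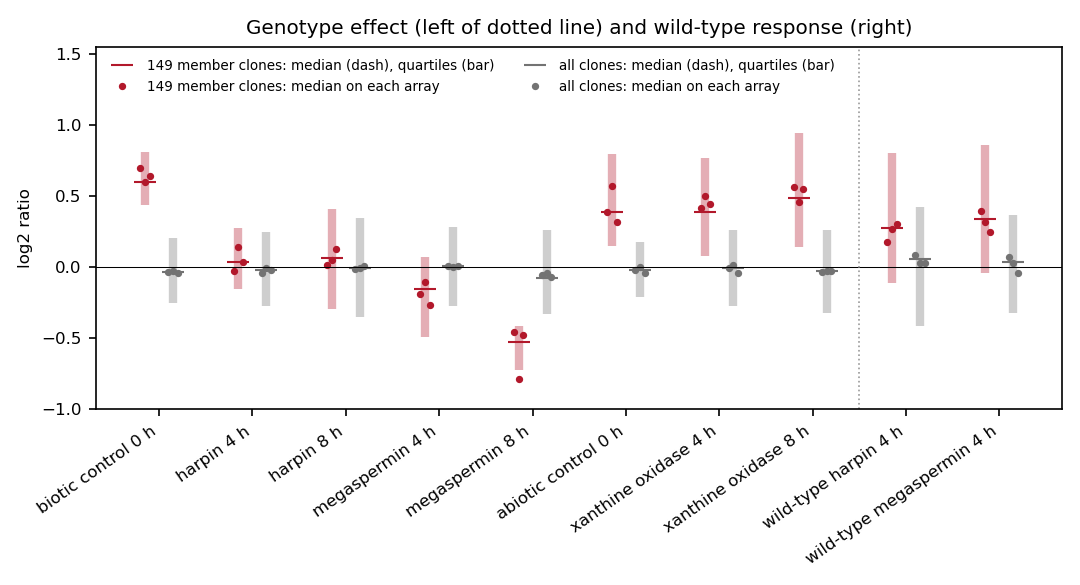
Median log2 ratio (dash), quartiles (bar) and the median on each of 3 arrays (points) for the 149 member clones in red and for all clones in grey, by condition; the 2 conditions right of the dotted line are treated over untreated wild-type cells. The member medians are near 0.6 in the biotic control, close to 0 with harpin, -0.15 and -0.52 with megaspermin, and 0.38 to 0.49 in the oxidant set.

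Adding the oxidant gave no called change in the members' genotype ratio. Against their own control, 0 of 141 members passed at 4 h of xanthine oxidase and 0 of 140 at 8 h by limma, while 17 and 16 had an unadjusted p under 0.05. Calls were rare among all clones too, with 0.0338% called higher and 0.0225% called lower at 4 h, and 0.193% and 0.109% at 8 h. The median difference of the members from the control was -0.07 at 4 h and 0.04 at 8 h, the second of which was -0.15 with arrays scaled. Among the members called higher in the abiotic control, 60 were also called higher at 8 h of xanthine oxidase and 0 were called lower. Of all clones, 11.4% were higher in the first group and 17.7% in the second. Clones with both calls were not counted over all clones, so the 60 are a description. With arrays weighted by quality, 17 members passed at 4 h and 34 at 8 h, so the count of 0 depends on equal weights. Scaling the arrays to 1 spread gave 6 members at 4 h and 9 at 8 h. The share of all clones called was not counted under either setting, so these counts are a description.

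Unnamed clone 137291 had the largest difference between the arrays of the rule among the members named here. It read 1.96, 2.26 and 1.72 in the biotic control, -1.94, -1.59 and -1.10 at 4 h of megaspermin and -1.25, -1.09 and -0.73 at 8 h. In the abiotic control it read 2.44, 3.13 and 3.04, at 4 h of xanthine oxidase 2.94, 2.57 and 2.58, and at 8 h 3.36, 2.31 and 2.21. None of the 9 arrays of the oxidant set, its control included, came near the megaspermin 4 h arrays, which the rule did not use. The fitted ratio was 2.87 ± 0.28 in the abiotic control (SE, n = 3 arrays, limma adjusted p = 5.47e-09) and 2.62 ± 0.28 at 8 h of xanthine oxidase (adjusted p = 1.39e-08). With harpin the same clone lay around 0, at -0.07 at 4 h and 0.11 at 8 h, and it did not pass at either time.

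Other unnamed clones had a similar profile. Clone 139711 read 1.49, 1.80 and 1.32 in the biotic control, -1.35, -1.55 and -0.77 at 4 h of megaspermin and -1.02, -1.04 and -0.47 at 8 h. Its ratio was 2.23 ± 0.16 in the abiotic control (SE, n = 3, adjusted p = 5.5e-11) and 1.79 ± 0.16 at 8 h of xanthine oxidase (adjusted p = 1.52e-09). Over the 24 standard arrays that the rule did not use, clone 139711 had a Pearson correlation of 0.976 with clone 137291 (22 arrays with both values), and clone 139293 had 0.945 (22 arrays). These arrays can share RNA samples and clones can share a transcript, so the correlations are a description, and clone 139293 was picked after its values were seen. Clone 136887 read 1.87, 1.40 and 1.41 in the biotic control, -0.28, -0.68 and -0.25 at 4 h of megaspermin and -0.99, -1.78 and -0.69 at 8 h. It differed from the first 2 clones with harpin, where it was higher in silenced cells at 4 h (1.05 ± 0.18, adjusted p = 3.95e-05) and at 8 h (0.53 ± 0.18, adjusted p = 0.0161, not past the threshold without the second or without the third harpin 8 h array, nor with a dye term, where it was 0.154).

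The oxidant ratios of some other unnamed clones were smaller or passed at some times and not at others. Clone 160942 read 1.09, 0.97 and 2.002 in the biotic control and -0.98, -1.24 and -1.65 at 8 h of megaspermin, with 4 h values around 0. It was higher at 8 h of xanthine oxidase (1.28 ± 0.16, adjusted p = 2.52e-07) and at 4 h (0.52 ± 0.16, adjusted p = 0.0104, and 0.0749 without the third array), and in the abiotic control it stood at 0.43 ± 0.16 (adjusted p = 0.0499, 0.05 with a replicate block, and 0.0948 to 0.239 with any 1 of its arrays left out). The difference between 8 h and the control did not pass for this clone. Clone 142397 read 1.80, 1.58 and 1.79 in the biotic control and -0.13, -0.82 and -0.69 at 8 h of megaspermin, while its oxidant ratios were 0.46 in the abiotic control, -0.28 at 4 h and 0.17 at 8 h. The first of these passed (adjusted p = 0.0194) but not with any 1 of its arrays left out (0.0616 to 0.135). Clone 142045 was higher in the abiotic control (0.76 ± 0.16, adjusted p = 0.000789) and at 8 h of xanthine oxidase (1.08 ± 0.16, adjusted p = 5.01e-06), and at 4 h it stood at 0.40 with an adjusted p of 0.059. The members called lower in the abiotic control were clone 139928 (-0.71 ± 0.18, adjusted p = 0.00318, and 0.0549 without the third array) and clone 134735 (-0.53). With xanthine oxidase they were LOC102598404 at both times and clone 134189 at 8 h (-0.66). Clones 134735 and 134189 were picked after their values were seen.

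LOC102598404 was lower in silenced cells where most other members called in the oxidant set were higher. Its single clone read 0.92, 0.73 and 0.75 in the biotic control, -0.18, -0.00 and -0.24 at 4 h of megaspermin and -0.65, -0.54 and -0.87 at 8 h. At 4 h of xanthine oxidase it read -0.69, -0.81 and -0.30, and at 8 h -0.71, -0.21 and -0.82. All 6 oxidant-treated arrays lay below 0. The biotic control arrays were used by the rule and are a description. The fitted ratio was below 0 at 4 h (-0.60 ± 0.14, adjusted p = 0.000979) and at 8 h (-0.58 ± 0.14, adjusted p = 0.00119), and stood at -0.36 in the abiotic control with an adjusted p of 0.0607.

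The remaining loci with 1 member clone divided in the oxidant set. LOC102587499 was higher in all 3 groups, at 1.39 ± 0.18 in the abiotic control, 1.24 ± 0.18 at 4 h and 1.40 ± 0.18 at 8 h (adjusted p of 1.54e-06, 5.31e-06 and 7.96e-07). LOC102577657 and LOC102590108 were also higher in all 3, at 0.84 and 0.63 in the abiotic control, 0.72 and 0.50 at 4 h, and 0.69 and 0.65 at 8 h. Each of these 3 clones was counted with 1 spot and missed a threshold of the rule when both spots were averaged. LOC102587499 then read -0.04 and LOC102590108 -0.32 at 8 h of megaspermin, and LOC102577657 read 0.30 in the biotic control. The calls of LOC102577657 in the abiotic control and at 8 h each rested on the second array, without which the adjusted p was 0.055 and 0.143. With a dye term in the fit its calls at 4 h and 8 h were lost too (adjusted p of 0.199 and 0.216). LOC102601725 was higher in the abiotic control (0.68 ± 0.15) and at 8 h (0.88 ± 0.15), LOC102577613 at 8 h (1.11 ± 0.19), and LOC102583272 at 8 h (0.73 ± 0.16). At 4 h LOC102577613 (0.58 ± 0.19) did not pass without the first or the third array, nor LOC102590108 without the third (adjusted p of 0.108, 0.0835 and 0.052). A dye term also ended the 4 h call of LOC102577613 (adjusted p = 0.0893). LOC102588954 passed in the abiotic control (0.36 ± 0.13, adjusted p = 0.0415) but not with any 1 of its arrays left out, when the adjusted p was 0.114 to 0.173, nor with a dye term (0.0584). LOC102577909, LOC102584024 and LOC102590714 passed in none of the 3 oxidant groups.

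With megaspermin, the lower ratio of the members was already visible at 4 h. Of 138 member clones tested there, 41 were lower in silenced cells and 7 were higher, where 16.1% of all clones were called lower and 16.5% higher. The members' median was -0.15, with array medians of -0.19, -0.10 and -0.27, and all clones had a median of 0.01. The 48 calls in both directions, against 32.6% of all clones, became 28 of 132 without the second megaspermin 4 h array and 75 with arrays weighted by quality. Of the 123 members with a mean in all 8 genotype groups, 87 had their lowest mean at 8 h of megaspermin, and 98 had a 4 h mean between those of 8 h and of the control. These last 2 counts include the arrays of the rule and are a description.

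With harpin the members split in both directions. At 4 h of harpin 18 of 141 members were lower and 24 higher, where 16.3% of all clones were called lower and 15% higher. At 8 h of harpin 20 of 135 were lower and 35 higher, where 22.8% and 23.2% of all clones were called. The shares of higher calls were near those of all clones, and the member medians were 0.04 at 4 h and 0.07 at 8 h, the second of which was -0.05 with thresholds of 0.6 in the rule. In both directions together 42 members were called at 4 h, against 31.3% of all clones, or 27 of 131 without the first harpin array. At 8 h 55 were called, against 46% of all clones, or 36 of 113 without the second. The harpin 8 h mean lay between those of megaspermin 8 h and the biotic control in 98 of 123 members, as did the harpin 4 h mean in 96, and these counts again include the arrays of the rule.

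**Figure D3:**
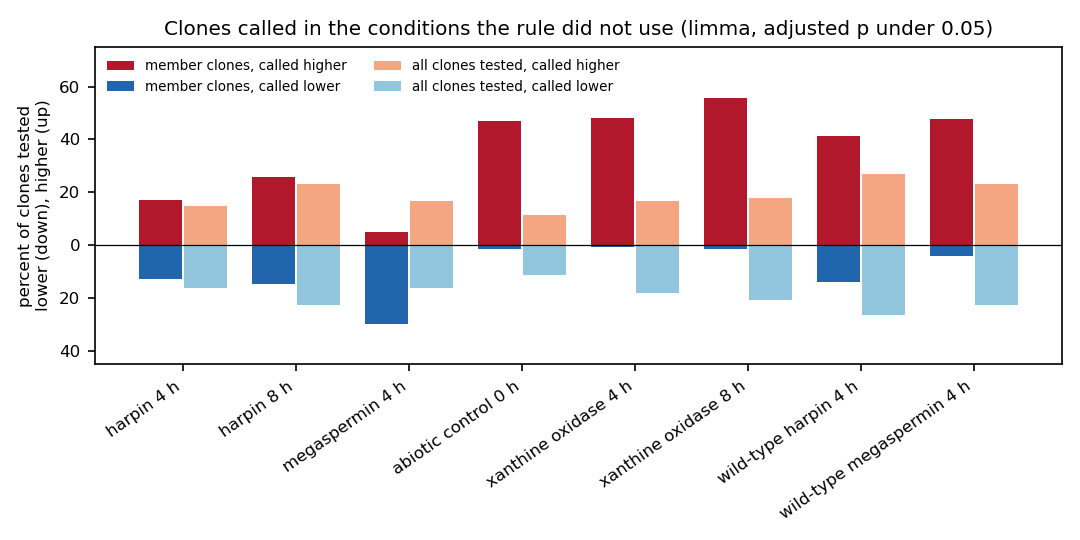
Percent of clones called higher (bars up) or lower (bars down) by limma at an adjusted p under 0.05, for the member clones (dark bars) and for all clones tested (light bars), in the 8 conditions that the rule did not use. The members' higher calls reach 47.0%, 48.2% and 55.7% in the oxidant set, and their lower calls exceed those of all clones at 4 h of megaspermin alone, with 29.7%.

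The 2 elicitors were compared directly at 4 h, the time that the rule left unused. Megaspermin minus harpin was negative in 36 of 133 members and positive in 8 at the threshold, where 7.62% of all clones were called lower and 8.98% higher. The median difference of the members was -0.24, and that of all clones 0.02. Clones with the opposite turn leaned the other way, with 49 of 213 called higher and 10 lower. Among the members, clone 136887 read -0.28, -0.68 and -0.25 with megaspermin, against 0.98, 1.36 and 0.81 with harpin, a difference of -1.45 ± 0.25 (SE, adjusted p = 0.0002). Clone 150467 read -0.02, -0.15 and -0.26 with megaspermin, against 1.14, 1.04 and 1.01 with harpin, a difference of -1.21 ± 0.23 (adjusted p = 0.000581). The 2 sets of arrays did not overlap in either clone.

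Individual members spread widely with harpin, in both directions. Clone 152917 read 1.25, 1.49 and 1.38 at 4 h of harpin and 1.74, 0.93 and 1.78 at 8 h, after 0.79, 0.54 and 0.60 in the biotic control. It was higher at both times (1.38 ± 0.19 and 1.48 ± 0.19, adjusted p of 1.2e-06 and 1.72e-07), while it read -0.35, -0.86 and -1.14 at 8 h of megaspermin. Clones 150467 and 161781 were likewise higher at both harpin times, at 1.06 and 1.19 at 4 h and 1.10 and 0.83 at 8 h. At the other end stood clone 139928, which read -1.61, -1.45 and -2.01 at 4 h of harpin and -1.13, -0.78 and -0.75 at 8 h. It was lower at 4 h (-1.69 ± 0.18, adjusted p = 1.91e-08) and at 8 h (-0.89 ± 0.18, adjusted p = 0.000154). Every harpin array of this clone lay below 0. Its biotic control arrays, at 0.68, 0.34 and 0.58, were used by the rule and are a description. Clone 138114 was lower at 8 h of harpin (-0.59 ± 0.12, adjusted p = 0.000143) and at 4 h of megaspermin (-0.49 ± 0.12, adjusted p = 0.00169).

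Between the harpin times, 14 of 134 members fell and 9 rose, where 9.94% of all clones were called lower at 8 h and 10.4% higher. The members' shares were 10.4% and 6.72%, so the falls were near the share of all clones and the rises below it. The 23 calls in all, against 20.4% of all clones, became 12 to 15 without the first or second array of either time and 45 with array weights. Clone 162714, named partly by its difference between these times, had 1.0, 0.72 and 0.72 at 8 h and -0.07, -0.00 and 0.17 at 4 h. The 2 times did not overlap, and the difference was 0.78 ± 0.27 (adjusted p = 0.0374, and 0.0563 to 0.135 without the first or second array of either time, and 0.0791 with arrays scaled). This clone was higher throughout the oxidant set, at 1.25 in the abiotic control, 1.67 at 4 h and 1.92 at 8 h.

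**Figure D4:**
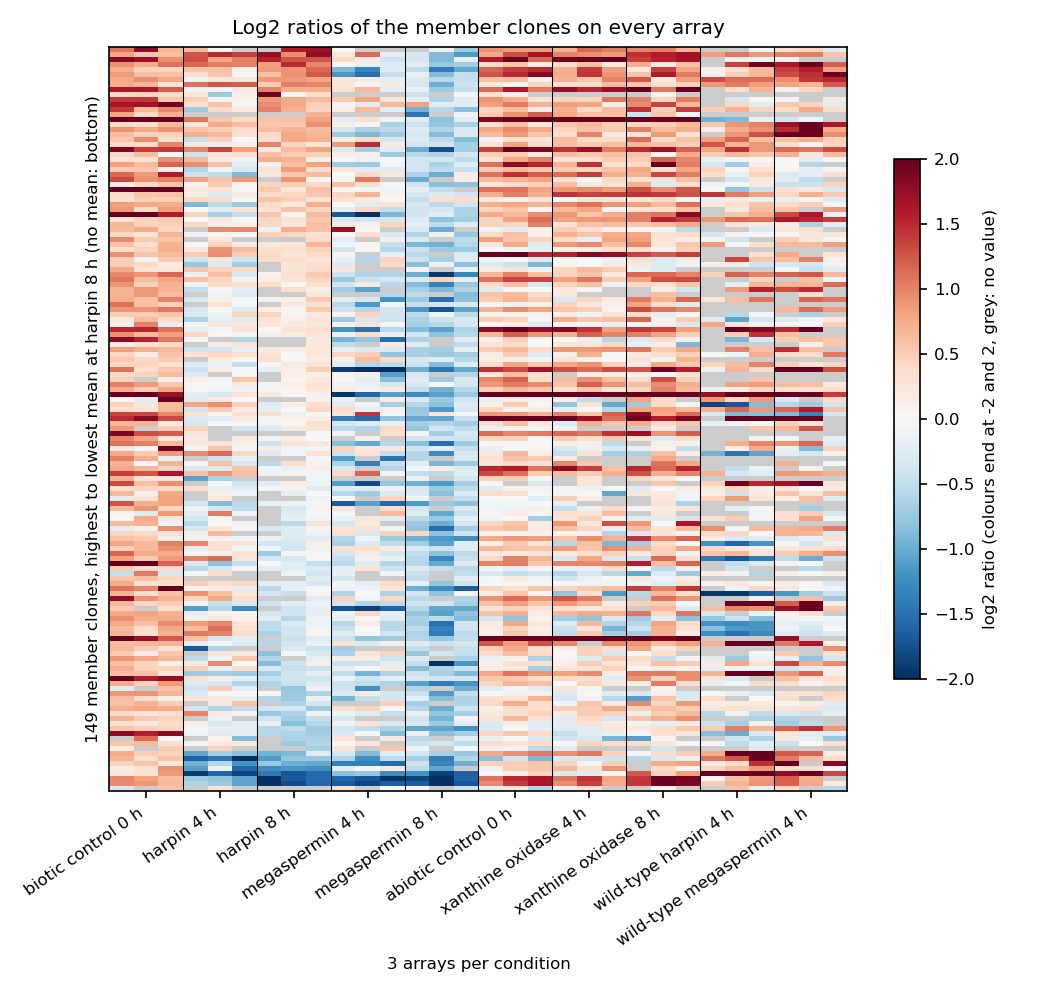
Log2 ratio of each of the 149 member clones (one line each) on each of 3 arrays per condition, ordered by the harpin 8 h mean; red is higher and blue lower in silenced cells, or in treated wild-type cells in the last 2 conditions, and grey means no value. The second megaspermin 8 h array is the darkest of its group, and the harpin columns run from red to blue while the oxidant columns are mostly red.

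LOC102585502 was the locus with the largest swing, and both of its clones on the array were members. Clone 159334 read 0.96, 0.80 and 0.61 in the biotic control, -1.61, -1.72 and -1.96 at 4 h of megaspermin and -1.83, -2.07 and -1.61 at 8 h. With harpin it read -0.72, -0.80 and -1.06 at 4 h and -2.01, -1.68 and -1.56 at 8 h. In the oxidant set it read 1.09, 1.50 and 1.63 in the control, 1.07, 1.44 and 0.80 at 4 h and 1.42, 1.98 and 1.91 at 8 h. On the genotype arrays that the rule did not use, every harpin array and every megaspermin 4 h array was thus negative. All 9 arrays of the oxidant set, its control included, were positive. The megaspermin 8 h arrays, which the rule used, are a description. The fitted ratio was -1.76 ± 0.16 at 4 h of megaspermin (SE, n = 3, adjusted p = 1.34e-09), -1.75 ± 0.16 at 8 h of harpin (adjusted p = 6.02e-10) and 1.77 ± 0.16 at 8 h of xanthine oxidase (adjusted p = 6.22e-10).

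The second clone of LOC102585502, 159438, gave nearly the same values. Its ratios were -1.72 at 4 h of megaspermin, -0.80 and -1.82 at 4 h and 8 h of harpin, and 1.33, 1.02 and 1.76 in the abiotic control and at 4 h and 8 h of xanthine oxidase. The clones can read 1 transcript and are not replicates of the locus. Both fell further between 4 h and 8 h of harpin, by 0.89 ± 0.22 (adjusted p = 0.00486) and by 1.02 ± 0.23 (adjusted p = 0.00179) on the log2 scale, although neither difference passed once the arrays were scaled to 1 spread (adjusted p of 0.121 and 0.0546). At 4 h both were lower with megaspermin than with harpin, with differences of -0.90 and -0.92 (adjusted p of 0.0052 and 0.00497). These 2 clones had the lowest harpin 8 h means of all members. They are among 11 members that were lower at 8 h of harpin and higher at 8 h of xanthine oxidase. Of all clones, 22.8% were lower in the first group and 17.7% higher in the second. Clones with both calls were not counted over all clones, so the 11 are a description.

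LOC102586427 behaved in another way, and 5 of its 6 clones on the array were members. Clone 151843 read 0.76, 0.52 and 0.85 in the biotic control, 0.94, 1.14 and 0.41 at 4 h of harpin and -0.27, -0.06 and 0.29 at 8 h. With megaspermin it read -0.44, 0.30 and -0.46 at 4 h and -0.58, -1.27 and -0.32 at 8 h. Its genotype ratio was thus positive on all 3 arrays at 4 h of harpin and of mixed sign at 8 h. All 5 member clones were higher at 4 h of harpin, with ratios of 0.69 to 0.83, and none passed at 8 h, with ratios of -0.33 to 0.08. Of the 5, 4 lost the 4 h call without the first harpin array (adjusted p of 0.0517 to 0.103), and 3 of these also without the second (0.0618 to 0.119). With a dye term clones 137251, 148410 and 156046 lost it as well (0.161, 0.139 and 0.102). Between 4 h and 8 h of harpin, 4 clones fell, by 0.84 to 1.12 on the log2 scale. Clone 156046 did not pass without the first harpin 8 h array (adjusted p = 0.0511), and each of the other 3 failed without the first array of either time, among others (0.059 to 0.161).

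**Figure D5:**
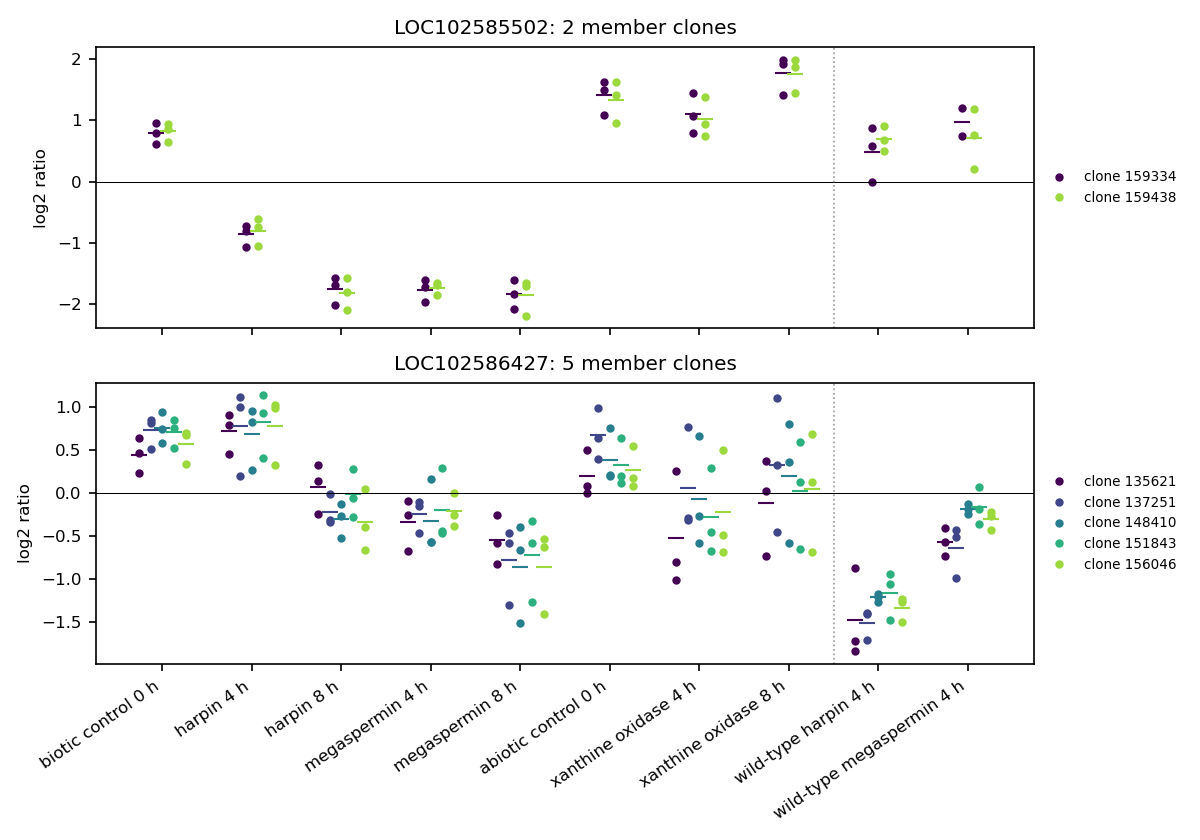
Log2 ratio on each array (points) and mean (dash) of the member clones of LOC102585502 (upper panel, 2 clones) and LOC102586427 (lower panel, 5 clones) by condition; the last 2 conditions are treated over untreated wild-type cells. On the arrays of silenced over wild-type cells, LOC102585502 is negative with both elicitors and positive in the oxidant set, while LOC102586427 stays positive at 4 h of harpin and is lowest in the wild-type harpin response.

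At 4 h all 5 LOC102586427 clones were lower with megaspermin than with harpin, with differences of -0.996 to -1.06 and adjusted p of 0.0121 to 0.0234. None of the 5 kept the call in every fit that left out 1 array, with adjusted p of 0.0528 to 0.104 where it was lost. Clone 135621 lost it without the third megaspermin array, clone 137251 without the first megaspermin or the first or second harpin array, and the other 3 without the third megaspermin or the second harpin array, among others. In the oxidant set only clone 137251 passed, in the abiotic control (0.68 ± 0.22, adjusted p = 0.0241, 0.237 and 0.0902 without the second or the third array, and 0.0914 with a dye term). The second array of each oxidant group read highest in all 5 clones: at 8 h clone 151843 had -0.65, 0.60 and 0.13. The sixth clone, 143557, was no member. It had means of 0.03 at 8 h of megaspermin and 0.55 in the biotic control, and 0.89 at 8 h of harpin, where the members were near 0. Among 107 other member clones with at least 20 arrays in common, 3 without a symbol followed the mean of the 5 clones closely over the 24 standard arrays the rule left unused. They were clones 151041, 153271 and 131171, with correlations of 0.967, 0.954 and 0.946, and the next clone had 0.655. These 3 were picked after their values were seen.

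Of the other 11 loci, 6 had a single clone on the array, and the other 5 had 1 member among several clones. LOC102601725 had 9 clones on the array, 8 with values in both groups of the rule, and 1 member, whose ratio was -0.41 at 8 h of megaspermin against 0.48 in the biotic control. Of its other 7 clones with values, 6 read above 0 in both groups, such as clone 142976 with 0.39 against 1.18. LOC102587499 had 10 clones, and in the abiotic control those that were no members ranged from -3.57 to 3.32. The second clone of LOC102588954, 153136, resembled the member: it had -0.19 against 0.42 in the groups of the rule and -0.56 at 8 h of harpin, where the member had -0.65 ± 0.16 (n = 2, adjusted p = 0.00128).

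LOC102590714 was already low at 4 h of megaspermin. It read 1.80, 1.55 and 1.06 in the biotic control, -0.93, -0.78 and -1.52 at 4 h of megaspermin, and -0.64 and -0.22 on the 2 arrays with a value at 8 h. The fitted 4 h ratio was -1.08 ± 0.17 (n = 3, adjusted p = 2.7e-05). The member clone of LOC102577909 was higher at 4 h of harpin (0.58 ± 0.13, adjusted p = 0.001), and its megaspermin 4 h value differed from that by -0.90 ± 0.18 (adjusted p = 0.00112). Other clones of this locus with means there did not agree among themselves. They ranged from -0.34 to 0.64 at 4 h of harpin and from -1.06 to 0.60 at 4 h of megaspermin. LOC102584024 passed in none of the 8 conditions tested, where its ratios ran between -0.63 and 0.22. Of the clones with several symbols, clone 153419 read -1.22 at 8 h of megaspermin and was lower at 4 h of harpin, 8 h of harpin and 4 h of megaspermin, at -0.40, -0.44 and -0.52.

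In wild-type cells more members were called higher than lower after either elicitor. After 4 h of megaspermin 59 of 124 members were higher than in untreated wild-type cells and 5 were lower, where 23.3% and 22.8% of all clones were called. After 4 h of harpin 48 of 116 were higher and 16 lower, where 26.9% and 26.6% were called. In both directions together, 46% of all clones were called with megaspermin and 53.5% with harpin. The member medians were 0.34 with megaspermin and 0.27 with harpin, with all clones at 0.03 and 0.06. The untreated wild-type RNA of these arrays may be the RNA on the biotic control arrays that chose the members, and the treated wild-type RNA may be that of the 4 h genotype arrays, so these values are given side by side and support no genotype value. Clones with the opposite turn, chosen by the same arrays, had 99 of 194 lower with megaspermin, and clones higher in both groups had 133 of 616 higher and 164 lower. Without the second wild-type megaspermin array, 41 members of 105 passed.

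Clone 137291 had the highest wild-type ratio of the members after megaspermin. It read 3.47, 3.73 and 1.39 with megaspermin and 1.72, 2.92 and 2.42 with harpin, with fitted ratios of 2.86 ± 0.28 (adjusted p = 1.49e-09) and 2.36 ± 0.28 (adjusted p = 6.16e-08). Clone 139711 read 2.32 and 2.63 with megaspermin and 2.61 and 2.14 with harpin, on 2 arrays each, so no array of either clone lay near 0. Clone 150467 was higher with both as well, at 1.69 ± 0.16 with megaspermin and 1.64 ± 0.20 with harpin. LOC102585502 rose moderately with megaspermin, at 0.97 ± 0.19 and 0.71 ± 0.16 in its 2 clones. With harpin they stood at 0.48 and 0.69, and the first of these did not pass without the second or the third array (adjusted p of 0.0715 and 0.194), with arrays scaled (0.138) or in a fit of the wild-type harpin group alone (0.078).

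In wild-type cells, the direct difference between megaspermin and harpin passed in 24 of 111 members, 17 higher with megaspermin than with harpin and 7 lower, where 6.93% of all clones were called in each direction and 13.9% in all. The count was 11 to 15 when the first megaspermin array or the second harpin or the third harpin array was left out, 6 with scaled arrays and 3 in a fit of these 2 groups alone. LOC102586427 fell with harpin in all 5 member clones, by 1.16 to 1.51 on the log2 scale. The clone of this locus that was no member, 143557, went the other way, at 1.07 with harpin and 0.48 with megaspermin. Clone 151843 read -0.18, -0.36 and 0.07 with megaspermin, against -0.94, -1.47 and -1.06 with harpin. The ratios with megaspermin were -0.16 to -0.64 in the 5 clones, and 2 passed, clones 135621 and 137251, though neither without the second array (adjusted p of 0.143 and 0.181) nor clone 135621 without the first (0.0752). Both calls were also lost with arrays scaled (0.0802 and 0.0817), and that of clone 135621 with a dye term (0.143). Clone 139928 was higher with both, at 0.69 ± 0.18 with megaspermin and 1.49 ± 0.18 with harpin. LOC102590714 was higher with megaspermin (0.55 ± 0.17, adjusted p = 0.0101, and 0.0561 without the second array) and lower with harpin (-0.64 ± 0.21, n = 2, adjusted p = 0.0128). The harpin call was lost with arrays scaled (adjusted p = 0.121) and with array weights (0.0618).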

How the data were processed

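The values came from 32 two-colour arrays. The authors deposited 1 log2 ratio per spot, taken here as base 2. The sources used here do not state the base, the normalization or the image software. Which samples were compared was taken from the labels. The 2 arrays with exchanged dyes were read as deposited, without a change of sign, and kept out of the main fit. Spots of 1 clone were averaged. The 30 standard arrays were fitted together with limma 3.58.1 in R 4.3.3, with 1 mean per group, on all clones, and a clone was tested in a group with at least 2 values there. P-values were adjusted by Benjamini-Hochberg over all clones tested in each contrast, at a threshold of 0.05. Values of the biotic control and of 8 h of megaspermin were not tested, because they chose the members. The fit was tested on simulated data. Figures and counts were made with Python 3.11.15, pandas 2.3.3, numpy 2.4.6 and matplotlib 3.10.9. The number of arrays is not the only limit on precision, since many spots lacked values and the ratios carry no spot intensity.

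The members and the lists beside them were chosen with earlier results of these data known. Clones named in the text are those with 1 LOC symbol. Of clones without a symbol that had both spots among the members and values in all 10 groups, the named ones are the 6 with the largest difference between the 2 groups of the rule and the 3 highest and 3 lowest by moderated t in 5 contrasts where past the threshold, up to 30 clones in all. Spots just inside and outside the thresholds were added. Alternatives were array weights, arrays scaled to 1 spread, a dye term, fits of the compared groups alone, a replicate block, single spots, other thresholds of the rule, and each array left out.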

Additional observations from a re-analysis of the deposited data

Results flagged for a closer look

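Among the 30 named clones, 35 differences between 2 treatments or times passed limma's test of the difference itself. Of these, 12 passed in every fit that left out 1 array of the groups compared and could still test the clone. The other 23 failed in at least 1 such fit. A clone with values on only 2 arrays of a group could not be tested without either of them. Clones 138114, 139928 and 162714 were named partly by their difference between the harpin times, so their passing there is a description. Of all clones, 20.4% were called between the harpin times, 16.6% between the elicitors and 13.9% in wild-type cells. Clones of 1 locus can read 1 transcript but are counted singly here.

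Between 8 h and 4 h of harpin, the genotype ratio was lower at 8 h in LOC102585502, by -0.89 and -1.02 in clones 159334 and 159438, and in LOC102588954, by -0.78. These 3 passed in every such fit that could test them. For LOC102588954 these were 4 fits, and both harpin 8 h arrays with its values were kept in each. The 2 clones of LOC102585502 did not pass with arrays scaled (adjusted p of 0.121 and 0.0546). In LOC102586427 the difference was -1.0, -0.99, -0.84 and -1.12 in clones 137251, 148410, 151843 and 156046. Clone 138114 had -0.47. Differences of 0.76 in LOC102577613, 0.80 in clone 139928 and 0.78 in clone 162714 ran the other way. Those beside the first 3 each failed without at least 1 array, most often the first or second harpin array of either time, with adjusted p of 0.0511 to 0.285. With arrays scaled LOC102577613, clone 138114 and clone 162714 failed too (0.108, 0.129 and 0.0791), and with a replicate block LOC102577613 had 0.0503.

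Between megaspermin and harpin at 4 h, the genotype ratio differed by -1.47 in clone 137291, -1.45 in 136887, -1.13 in 139711, -1.21 in 150467 and -1.06 in 161781. It differed by -0.90 and -0.92 in the 2 clones of LOC102585502 and by -0.90 in LOC102577909. These 8 passed in every such fit. The 5 clones of LOC102586427 (135621, 137251, 148410, 151843 and 156046) had -1.06, -1.02, -1.01, -1.03 and -0.996, LOC102590714 had -0.78, clone 152917 had -0.98 (-0.985 before rounding) and clone 139928 had 0.91. Each of these failed without at least 1 array: clone 152917 without the third megaspermin array, LOC102590714 without the first megaspermin, the third megaspermin or the second harpin array, and clone 139928 without the third of either. Their adjusted p was then 0.0514 to 0.171. In a fit of the groups compared alone, LOC102590714, clone 152917 and clone 139928 failed as well (0.132, 0.0757 and 0.0501), and LOC102590714 also with arrays scaled (0.0773).

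In wild-type cells, megaspermin minus harpin at 4 h was 1.19 in LOC102590714 (1.185 before rounding). This difference passed in the 4 such fits that could test it, each of which kept both harpin arrays with its values. It did not pass with arrays scaled (0.88, adjusted p = 0.0681) or in a fit of these groups alone (0.053). Megaspermin minus harpin was 0.91, 1.03, 1.0 and 1.03 in clones 135621, 148410, 151843 and 156046 of LOC102586427, 0.62 in LOC102598404, 0.63 in clone 142397 and -0.80 in clone 139928. Each of these 7 failed without at least 1 array of either elicitor, with adjusted p of 0.0549 to 0.227, and each failed with arrays scaled (0.136 to 0.293).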

How the results depend on the processing

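Among the named clones, the only ones checked for it, no called result changed sign in the alternative fits. Medians of the members that lay near 0 did: 0.066 at 8 h of harpin and 0.0296 between harpin times became -0.0458 and -0.0253 with thresholds of 0.6. The median of 0.0389 for xanthine oxidase 8 h minus control became -0.1459 with arrays scaled and -0.0128 without the third abiotic control array. The 205 spots became 395 at a threshold of 0.3, 63 at 0.6 and 103 clones on clone means. With thresholds of 0.6, the members called were 14 at 4 h and 11 at 8 h of harpin, 17 at 4 h of megaspermin, 23 in the abiotic control, 24 and 28 with xanthine oxidase, and 24 and 22 in wild-type harpin and megaspermin, from a shorter list by construction. The differences called were then 10 for harpin times, 20 for elicitors and 7 in wild type. Medians were then -0.3207 (megaspermin 4 h), 0.4894 and 0.7615 (xanthine oxidase), 0.4614 (wild-type megaspermin), -0.2292 (xanthine oxidase 4 h minus control) and -0.616 (elicitors). Array weights gave 75 calls at 4 h of megaspermin, 105 at 4 h of xanthine oxidase, 45 between harpin times, 34 and 17 for xanthine oxidase 8 h and 4 h minus control, and a median of 0.5447 at 8 h of xanthine oxidase. Scaled arrays gave medians of 0.5922 (abiotic control), 0.4308 (xanthine oxidase 4 h), 0.2058 and 0.2557 (wild-type harpin and megaspermin), and -0.2383 for xanthine oxidase 4 h minus control. They gave 15 calls between harpin times, 9 and 6 against the abiotic control and 6 in wild type. Single spots gave medians of 0.4498, 0.5472 and 0.4207 (xanthine oxidase 4 h, 8 h, wild-type megaspermin) and 36 calls between harpin times. A dye term gave 36 calls and a median of 0.0055 at 8 h of harpin. The compared groups alone gave 3 calls between the wild-type elicitors. The shares of all clones called were not counted in these alternative fits, and the cause was not tested.

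Leaving out each array in turn gave 177 to 216 spots. Calls and medians ranged from 27 to 38 and 0.0485 to 0.108 at 4 h of harpin, 36 to 41 and 0.0515 to 0.1218 at 8 h, 28 to 43 and -0.227 to -0.1265 at 4 h of megaspermin, 49 to 58 and 0.3159 to 0.4791 in the abiotic control, 55 to 62 and 0.4128 to 0.4365 at 4 h of xanthine oxidase, and 68 to 76 and 0.5425 to 0.5665 at 8 h. They were 44 to 60 and 0.254 to 0.2809 for wild-type harpin, and 41 to 58 and 0.309 to 0.3849 for wild-type megaspermin. For differences they were 12 to 21 and 0.0048 to 0.0985 (harpin times), 0 to 3 and -0.0128 to 0.0876, and 0 and -0.0872 to -0.0369 (xanthine oxidase 8 h and 4 h minus control), 31 to 39 and -0.3107 to -0.2318 (elicitors), and 11 to 18 and 0.082 to 0.1833 (wild type).

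Over all groups together, the replicate numbers showed no common pairing of the arrays. Same-numbered arrays of different groups had a median correlation of deviations of -0.027, from -0.426 to 0.363, and 23 of 135 pairs were above 0.1. Whether the arrays of some groups were paired cannot be told from these values. With the replicate number as a block, 42 and 56 members were called at 4 h and 8 h of harpin, 47 at 4 h of megaspermin, 72 in the abiotic control, and 72 and 83 with xanthine oxidase. Over the named clones and all alternatives, 3381 results kept their side of the threshold, 103 passed that had not, and 186 no longer passed.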

Other observations

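Clones with a gene symbol that met both thresholds on clone means were not members by the rule. They were a PPO clone (polyphenol oxidase, an enzyme of wound browning), with -0.46 at 8 h of megaspermin against 2.45 in the biotic control, and a VPE2 clone (a vacuolar processing enzyme, a protease of vacuolar cell death), with -0.44 against 0.41. The PPO clone read 1.42 in the abiotic control, 0.79 at 4 h and 1.59 at 8 h of xanthine oxidase, and 1.56 and 0.64 at 4 h and 8 h of harpin. Over the 8 genotype means, the named clones most like the members' median were ARD with a Pearson correlation of 0.902, RA215 with 0.890 and another PPO clone with 0.842, among 120 compared, as a description.

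The array of the abiotic control with exchanged dyes, read as deposited, correlated at 0.717 with the mean of the standard arrays. It gave the members a median of 0.265, with 107 of 147 above 0. The wild-type harpin array with exchanged dyes correlated at 0.90 and gave them a median of 0.355, with 66 of 103 above 0. Clone 152917 stood at -0.05 on the exchanged abiotic array, against 1.24 in the fit of the standard arrays, and LOC102587499 stood at 0.24 against 1.39.

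The 3 unnamed clones that followed LOC102586427 also fell with harpin in wild-type cells, at -1.84 in clone 151041, -1.05 in clone 153271 and -1.33 in clone 131171 (limma adjusted p of 6.52e-08, 6.26e-05 and 4.18e-06). At 4 h of harpin their genotype ratios were 0.58, 0.69 and 0.51, of which the first 2 passed (adjusted p of 0.0446, 0.00851 and 0.0593).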
